A study of Homo sapiens with 12 samples.

Results

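Between the centromeric blocks and the ends of the human chromosomes, 340 regions carried an H3K9me3 peak in at least 2 of 4 libraries of HCT116 cells, an established colorectal carcinoma line. H3K9me3 is trimethylated lysine 9 of histone H3. Its peaks in each library were listed by the authors, and peaks of the 4 lists lying within 1 kb of each other were merged here into 3228 regions on chromosomes 1 to 22 and X. Regions on chromosomes 19 and X were then set aside, as were those with a midpoint in the outer 2 Mb of a chromosome or in a broad window round its centromere. That left 1839 arm regions. Of these, 1499 were in 1 list and 340, or 18.5%, were in 2 or more lists. The 340 regions described here were thus chosen by the presence of called H3K9me3 peaks in these same libraries. A further 501 regions in 2 or more lists lay outside the arms as drawn.

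The control cells were taken at 0 hr and the other cells after 24 hr of methionine restriction, with 2 libraries of each, lettered A and B. Control cells kept for 24 hr were not profiled, which means that restriction cannot be told apart from time in culture. The same cells were profiled for H3K9me1, the monomethylated form of the residue, in 2 control and 2 restricted libraries, and each peak list was called against an input library of the same time and letter. The labels do not state whether A and B were separate cultures, so p-values reflect only how far these libraries differ, and that spread may be technical. An exact two-sided permutation test of 2 libraries against 2 cannot give a p below 0.333.

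H3K9me3 is laid down by SUV39H1, SUV39H2 and SETDB1, enzymes that take their methyl groups from S-adenosylmethionine, which cells make from methionine. The mark is bound by HP1 proteins and is best known from constitutive heterochromatin at centromeres and chromosome ends. On chromosome arms it is known to form shorter patches over silenced repeats and over clusters of zinc finger genes, where the KRAB zinc finger proteins and TRIM28 bring SETDB1 to DNA. H3K9me1 can be the substrate on which the higher degrees are built and also occurs in active chromatin.

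The file headers give the H3K9me3 libraries 33503018 to 35736289 reads, the H3K9me1 libraries 30952210 to 39452512 and the inputs 23523460 to 27843707. The H3K9me3 lists differed more than the depths did, with 1372 peaks in control A and 797 in control B, while restricted A had 1880 and restricted B had 674. Both A lists were thus longer than both B lists. Of the 23 chromosomes, the H3K9me1 lists named 20 in control A and 10 in control B, while restricted A had 21 and restricted B had 19. H3K9me1 values below use only the chromosomes that a list names. Where 4 values stand in a row without names, the controls A and B come first and the restricted libraries A and B follow.

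Most of the recurring arm regions were shared by few libraries. Of the 340, 234 were in 2 lists, 67 in 3 and 39 in all 4. The most frequent combination was both A libraries and no other, with 92 regions, while both B libraries and no other gave 5. Both restricted libraries alone shared 48 regions and both controls alone shared 35. Control B with restricted A alone gave 32 and control A with restricted B alone gave 22. Among regions in 3 lists, 35 lacked control B, 27 lacked restricted B, 4 lacked restricted A and 1 lacked control A. Every combination but that of both B libraries holds control A or restricted A, which follows from the rule of 2 or more lists alone. These counts are what the choice of regions used, so they are a description, and the A lists were the longer ones.

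**Figure D1:**
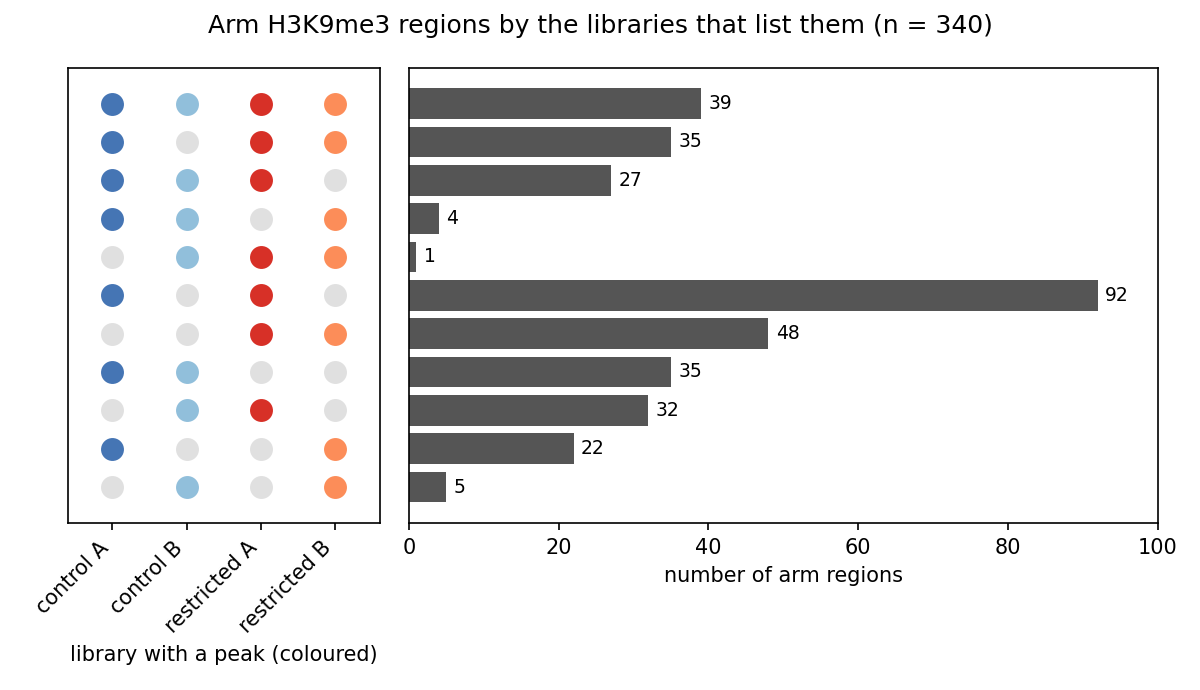
Number of arm regions for each combination of the 4 H3K9me3 lists, over the 340 regions in 2 or more lists. The bar for both A libraries (92) is the tallest, both restricted alone give 48, all 4 lists 39, both controls alone 35 and both B libraries 5.

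The regions were short. Their median width was 1188 bp, with quartiles of 771 and 1684 bp and a range of 303 to 26253 bp. The median was 1048 bp for regions in 2 lists, 1415 bp in 3 lists and 1770 bp in 4 lists, against 551 bp for arm regions in 1 list. Wide regions are more likely to be hit by another list and are also made wider by merging, so width is not independent of the choice.

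Recurrence was then tested on a library that the choice had not used. For each library in turn, arm regions were merged from the other 3 lists alone. Regions present in 2 or 3 of these had a peak in the fourth library in 53.9% of 191 for control A (exact binomial interval 46.6% to 61.1%). The share was 25.7% of 268 for control B (20.6% to 31.4%), 60.2% of 166 for restricted A (52.4% to 67.7%) and 29.5% of 264 for restricted B (24.1% to 35.4%). Regions present in 1 of the other 3 lists had a peak in the fourth library in 11.4% of 1230, 4.89% of 1391, 18.4% of 915 and 4.91% of 1445. In all 4 libraries the recurring regions were found again more often, and the intervals did not overlap.

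The mean share found again was 42.4% ± 17.3 (SD, n = 4 libraries) for regions in 2 or 3 other lists and 9.89% ± 6.42 for regions in 1, a difference of 32.5 ± 11.3 percentage points. Regions present in all 3 other lists were found again in 97.5% of 40 for control A, 52.7% of 74 for control B, 90.7% of 43 for restricted A and 58.5% of 65 for restricted B. The shorter B lists thus missed a large part of what the other 3 libraries shared. The intervals cover counting error between regions only.

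Overlap between single lists was also counted. Of the 323 arm regions of control B, 32.5% were in control A, 30.7% in restricted A and 15.2% in restricted B. Of the 288 of restricted B, 42.7% were in restricted A, 34.7% in control A and 17% in control B. Of the 675 of control A, 28.6% were in restricted A, 15.6% in control B and 14.8% in restricted B. Of the 1038 of restricted A, 18.6% were in control A, 9.54% in control B and 11.8% in restricted B. Each list thus shared its largest part with a list lettered A. The A lists were also the longer ones, and the part of list length in this was not tested.

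The number of recurring regions with a peak overlapped between the conditions. Presence in these lists chose the regions, so this and the summed lengths that follow are a description, with no test. It was 254 in control A and 143 in control B, while restricted A had 274 and restricted B had 154. Each restricted library lay above the control of its letter, at 1.08 times for A and 1.08 times for B, but both A libraries lay above both B libraries. The means were 198.5 ± 78.5 regions in controls and 214 ± 84.9 in restricted cells (SD, n = 2 each). The difference of 15.5 turned to -23.5 without control B and to -31.5 without restricted A.

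The length under peaks in these regions was 252.5 kb in control A and 127.5 kb in control B, while restricted A had 285.6 kb and restricted B had 127.2 kb. Restricted A was 1.13 times control A, while restricted B was 0.997 times control B. The means were 190 ± 88.4 kb and 206 ± 112 kb (SD, n = 2 each), and the difference turned to -28.9 kb without control B and to -42.4 kb without restricted A. As a part of everything called in the library, the same length was 17.4%, 13.5%, 16.1% and 17.9%, again with overlapping conditions. That difference of 1.54 percentage points turned to -0.514 without restricted B, and to -1.32 when peaks below a fold enrichment of 3 were dropped.

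What differed most between lists was the number of regions found once. Arm regions in 1 list numbered 421, 180, 764 and 134. The recurring regions were therefore 37.6% of the arm regions of control A and 44.3% of those of control B, and 26.4% and 53.5% in the restricted libraries A and B. The highest and the lowest share were both in restricted libraries.

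**Figure D2:**
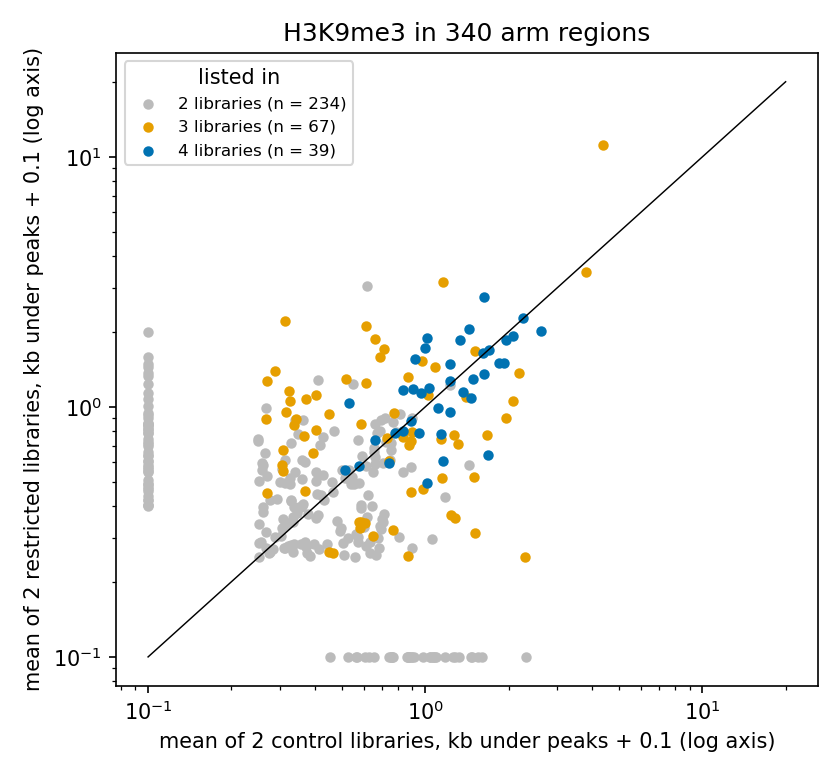
Length under H3K9me3 peaks in each of the 340 recurring arm regions, as the mean of the controls on the horizontal axis and the mean of the restricted libraries on the vertical axis (kb, log scale after adding 0.1 kb). The colours mark regions in 2, 3 and 4 lists and the line marks equal length. The row of points at 0.1 kb restricted holds the 35 regions in both control lists only, the column at 0.1 kb control holds the 48 in both restricted lists only, and the widest region stands alone at the upper right.

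Region by region, limma was fitted on log2(kb under peaks + 0.1), scaled to equal covered length per library, over all 841 regions in 2 or more lists. No region passed a Benjamini-Hochberg adjusted p of 0.05, which is 0% of those tested, and the smallest adjusted p of limma among the 340 was 0.419. At an unadjusted p below 0.05 limma gave 53 of the 841, of which 28 were among the 340, with 14 higher and 14 lower after restriction. The median log2 difference, restricted over control, was -0.04 over the 340 and -0.09 over the 841. The restricted libraries both held more length than either control in 67 of the 340 (19.7%), beside 16.1% of the 841. They both held less in 44 (12.9%), beside 16.6%. Presence in these same lists chose the regions, so nothing is read from these shares or from the p-values of limma. With 2 libraries against 2, the lack of calls is not read as a lack of change.

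Of the 39 regions in all 4 lists, the steadiest of the named ones was chr22:21678608-21680798 (hg19), on the long arm of chromosome 22. It held 2.158 kb in control A and 2.153 kb in control B, and the restricted libraries held 2.191 kb (A) and 2.154 kb (B). The 4 values thus filled nearly the whole 2191 bp of the merged region in every library. Its fold enrichment, the authors' ratio of read pileup to local background averaged over the peak, was 2.27, 2.41, 3.68 and 2.16. Its pileup was far above that of most recurring regions, at 132.48, 125.52, 110.97 and 128.37 reads. The medians of the recurring regions were 21, 17.7, 16.6 and 19.7 reads. Pileup divided by fold, a rough stand-in for the local background, was 58.29, 52.08, 30.16 and 59.38 reads. The region is thus not typical of the recurring ones, and the source of its high background was not tested.

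A second steady region, chr7:91516479-91518485, held 1.70, 2.01, 1.79 and 1.74 kb. The third, chr15:55737651-55739591, held 1.495, 1.710, 1.801 and 1.378 kb. In both regions the conditions overlapped.

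Other regions in all 4 lists varied more in the length called. The region chr8:94845501-94848593 held 2.11, 2.92, 2.95 and 0.867 kb, and restricted B was the low library. At chr11:119951944-119956571 the lengths were 2.49, 0.567, 4.42 and 0.885 kb, so that both A libraries lay above both B libraries. The same order was seen at chr9:132275147-132277957, with 2.43, 1.51, 2.64 and 0.996 kb.

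At chr10:2563265-2565591 control B was low, at 0.484 kb against 2.20, 2.33 and 1.58 kb in the other 3. At chr8:143409062-143410963 restricted A was low, at 1.01 kb, against 1.82, 1.84 and 1.79 kb. Of the 8 regions named here from those in all 4 lists, this last one alone had both restricted libraries on one side of both controls. Summed over the 39 regions, the length was 51.3, 39.5, 52.6 and 39.1 kb, with 1.03 times as much in restricted A as in control A and 0.990 times in B.

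Among the 35 regions in both control lists and neither restricted list, chr9:130286046-130288590 was the longest, with 2.545 kb in control A and 1.890 kb in control B. It was listed at 0 in both restricted libraries. Its fold enrichment was 3.14 and 3.29 in the controls. Absence from the restricted lists is what put it in this set, so no test is given for it or for the regions that follow.

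The next were chr8:134535884-134538034 with 2.15 and 0.845 kb in the controls, chr14:31744499-31746337 with 0.929 and 1.79 kb, and chr1:224200388-224202807 with 0.480 and 2.42 kb. Both controls held 1.42 and 1.34 kb at chr2:162137593-162139008. Also named were chr1:203935691-203936951 (1.26 and 1.09 kb) and chr8:140872627-140874229 (1.55 and 0.901 kb). They were picked by the rank of their unadjusted limma p, which served only to choose regions to name. All were listed at 0 in both restricted libraries. A value of 0 means that no peak passed the caller's threshold, not that no reads were there, and log2 differences against 0 depend on the added 0.1 kb and are not given.

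Among the 48 regions in both restricted lists and neither control list, the longest was chr7:6730347-6733759 on the short arm of chromosome 7. It held 1.56 kb in restricted A and 2.213 kb in restricted B, with a fold enrichment of 4.17 and 3.76, and was listed at 0 in both controls. It lies in a window of chromosome 7 known for zinc finger genes. In that window it was the only recurring region, beside 2 found in 1 list.

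The region chr3:129635357-129636877 held 1.470 and 1.485 kb in the restricted libraries. At chr3:47400991-47403548 they held 2.22 and 0.560 kb, at chr17:47253115-47255372 1.96 and 0.586 kb, and at chr8:86814579-86816778 0.501 and 2.18 kb. At chr1:23687746-23689428, likewise picked only by the rank of its unadjusted limma p, they held 1.29 and 1.18 kb. These regions too were listed at 0 in both controls.

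The widest recurring region was chr1:228744956-228771208, of 26253 bp, on the distal long arm of chromosome 1. It held 8.59 kb in control A and 0 in control B, and the restricted libraries held 21.7 kb (A) and 0.441 kb (B). The length was thus high in both A libraries and near or at 0 in both B libraries, whatever the condition. The fold enrichment was low at 1.83, 2.30 and 1.71 in the 3 libraries with a peak.

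Beside it lay chr1:228773066-228774612, with 1.33 kb in control A and 1.55 kb in restricted A, and chr1:228776441-228782358, with 1.04 and 5.92 kb. Both were listed at 0 in both B libraries. The gaps between the 3 regions were 1.86 and 1.83 kb. The distal long arm of chromosome 1 is known for a tandem array of ribosomal RNA genes of the small 5S class; overlap with it was not tested, because no gene annotation of hg19 was used. Without the widest region, left out after the data were seen, the length under peaks was 243.9, 127.5, 264.0 and 126.7 kb, with overlapping conditions.

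The highest fold enrichment over any recurring region was 6.29, in restricted A at chr17:6097210-6097805, against 2.62 in control A. It was followed by 5.47 in control B at chr15:85733729-85736695, where control A had 3.15 and restricted A 3.76. In restricted A, values of 5.10 at chr13:37854467-37854840, 4.99 at chr5:74551194-74551989 and 4.93 at chr3:156896256-156897508 came next. Of these 5, 4 had their highest value in restricted A, the library that also held 50 of the recurring regions at a fold of at least 4, against 10, 6 and 11 in the others.

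By their medians, recurring regions had a lower fold and a smaller q than arm regions in 1 list. Their median fold was 3.02, 3.27, 3.48 and 3.21, against 3.29, 3.44, 3.54 and 3.40 for arm regions in 1 list, lower in each library. Their median pileup was higher, at 21, 17.7, 16.6 and 19.7 reads against 15.9, 15.1, 14.5 and 16.8. Pileup divided by fold served as a rough stand-in for the local background. The pileup was that of the peak with the smallest q and the fold was the region's highest, so they can come from different peaks. The quotient is not the caller's own background value and can overstate it. Relative to the background expected from the library's depth, the quotient was 2.25, 2.04, 1.75 and 1.99 in recurring regions. In the others it was 1.5, 1.57, 1.47 and 1.53.

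The recurring regions thus stood where this rough background was higher in all 4 libraries, and the part of this in their recurrence was not tested. The median −log10 q was 2.03, 1.86, 2.28 and 2.17, against 1.69, 1.63, 1.96 and 1.86. Of the 50 arm regions with the smallest q, 37, 32, 16 and 32 recurred. Of the 50 with the highest fold, 12, 14, 16 and 22 recurred. Among all arm regions of each list, 37.6%, 44.3%, 26.4% and 53.5% recurred. By q the top 50 lay above that share in every library, and closest to it in restricted A. By fold they lay below it in both controls and restricted B, and above it in restricted A. All of these are the authors' values for peaks whose threshold also chose the regions, and they are compared only within a list.

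At the limit of the rule, the regions with the least length under peaks were chr11:90796732-90797034, with 0.302 kb in restricted A and 0.303 kb in restricted B, and chr10:103621177-103621622, with 0.302 kb in control A and 0.302 kb in restricted B. The longest that fell outside were chr7:152109389-152113496, with 4.11 kb in restricted A alone, and chr1:148848272-148852107, with 3.84 kb in restricted A alone.

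Recurring regions lay over all 21 chromosomes used, at 14.3 per 100 Mb of arm over 2384 Mb. They were densest on chromosome 17, with 27 regions or 42.1 per 100 Mb, followed by chromosome 8 with 37 regions or 28.6, and chromosome 9 with 23 regions or 21.1. They were sparsest on chromosome 18, with 3 regions or 4.92 per 100 Mb, chromosome 13 with 6.73 and chromosome 4 with 6.89. Arm regions in 1 list were also dense on chromosome 17, at 115 per 100 Mb, and on chromosome 8, at 102, beside 62.9 over all arms. On chromosome 22 they stood at 117 per 100 Mb, where recurring regions were at 14.2, near their level over all arms. Chromosome 17 held 7 of the 39 regions in all 4 lists, the most of any chromosome.

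**Figure D3:**
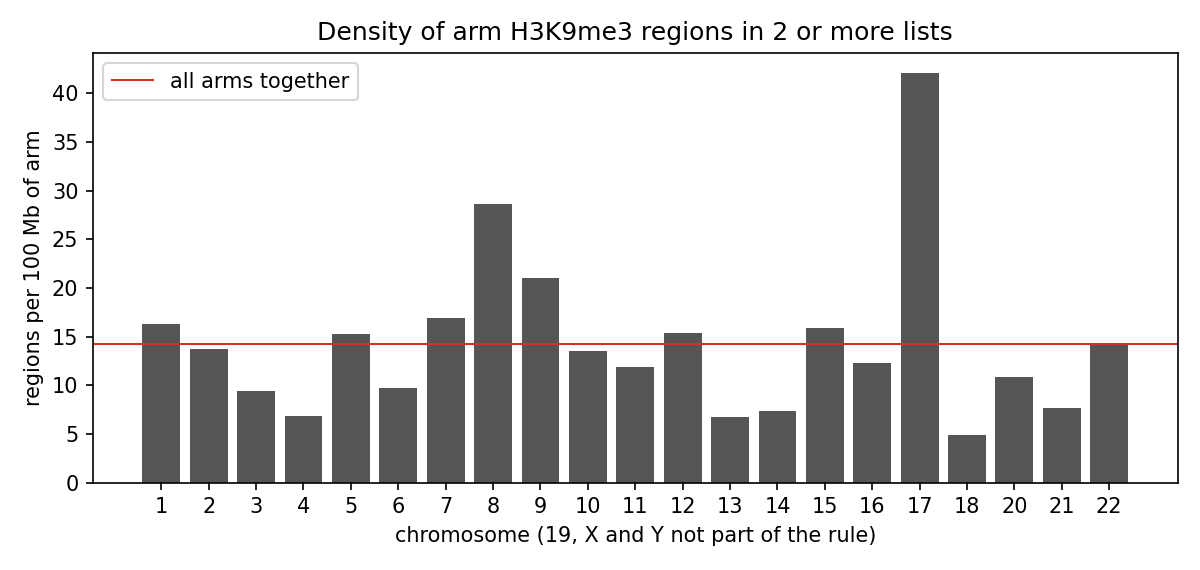
Arm regions per 100 Mb of arm on each chromosome, for regions in 2 or more lists, with a line at the rate over all arms (14.3). Chromosome 17 stands highest (42.1), followed by chromosome 8 (28.6), and chromosome 18 is lowest (4.92).

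Along the arms the recurring regions were placed like the regions found once. Within 10 Mb of a chromosome end lay 72 of the 340, or 21.2% (exact binomial interval 17% to 25.9%), against 20.5% of regions in 1 list (18.5% to 22.6%). Within 10 Mb of the centromeric window lay 16.5% (12.7% to 20.8%) against 17% (15.1% to 19.0%). The short arms held 86 and the long arms 254. Of the gaps between neighbouring recurring regions, 24 were under 100 kb and 83 under 1 Mb.

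Windows set by hand round zinc finger genes were denser in recurring regions than the arms as a whole. The 6 windows held 6 of them in 11 Mb, or 54.5 per 100 Mb, beside 14.3 over all arms. Arm regions in 1 list stood at 173 per 100 Mb there, beside 62.9. These rates, computed after the data were seen, rest on 6 regions and were not tested. Of the 6 windows, 16p13.3 held 3, 7p22.1, 3p22-p21 and 9q22 held 1 each, and 7q36.1 and 6p22.1 held 0. On chromosome 16 these were chr16:3338784-3341018 (0, 1.17, 1.41 and 0 kb), chr16:3432364-3435198 (2.27, 0, 0 and 2.24 kb) and chr16:3458370-3459179 (0.607, 0, 0.809 and 0 kb). Each of the 3 was in 1 control and 1 restricted list, in 3 different pairs of letters. The window sum on chromosome 16 was 2.87, 1.17, 2.22 and 2.24 kb, with overlapping conditions.

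At 3p22-p21, chr3:44800635-44802218 held 0.302 and 1.58 kb in the controls and was listed at 0 in both restricted libraries. At 9q22, chr9:99035877-99036731 held 0.336 kb in control A and 0.855 kb in restricted A only. The zinc finger windows on chromosomes 3 and 7 thus each held a region found in 1 condition, in opposite directions.

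The ancestral centromere at 2q21, a relic of the fusion that made human chromosome 2, held 2 recurring regions. They were chr2:133010150-133011324 (1.11, 0, 1.18 and 0 kb) and chr2:133013813-133015723 (1.76, 0, 1.91 and 0.940 kb). The fusion site itself at 2q13, the protocadherin cluster at 5q31 and the olfactory receptor cluster at 11p15 held 0. Arm regions in 1 list numbered 4, 6 and 0 in these last 3 windows.

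H3K9me1 is the readout that the choice of regions did not use, and over the recurring regions it differed between the conditions in direction. Of the recurring regions on listed chromosomes, at least 1 bp of H3K9me1 lay in 62 of 335 in control A (18.5%) and 62 of 195 in control B (31.8%), while restricted A had it in 224 of 328 (68.3%) and restricted B in 218 of 316 (69%). Both restricted libraries lay above both controls. At least 50% of the region was covered in 9, 8, 99 and 84 of them.

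By bases, H3K9me1 covered 4.24%, 6.79%, 30.6% and 25.4% of the recurring regions. The flanks, 25 kb on either side, were covered to 11.4%, 15.8%, 6.92% and 14.2%. The ratio of region to flank was thus 0.372 in control A and 0.430 in control B, while restricted A had 4.43 and restricted B had 1.79. In the controls the regions held less H3K9me1 than their surroundings, and in the restricted libraries they held more.

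On the log2 scale the ratio was -1.32 ± 0.147 in controls and 1.49 ± 0.926 in restricted cells (SD, n = 2 each), a difference of 2.81. The exact two-sided permutation p was 0.333, the smallest that 2 libraries against 2 can give, so the difference could not pass 0.05 in this design. It stayed between 2.16 and 3.47 under every alternative tried, leaving out each library included. A sign-flip test over the 4 libraries together, whether the regions differ from their flanks irrespective of condition, gave an exact p = 1.

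**Figure D4:**
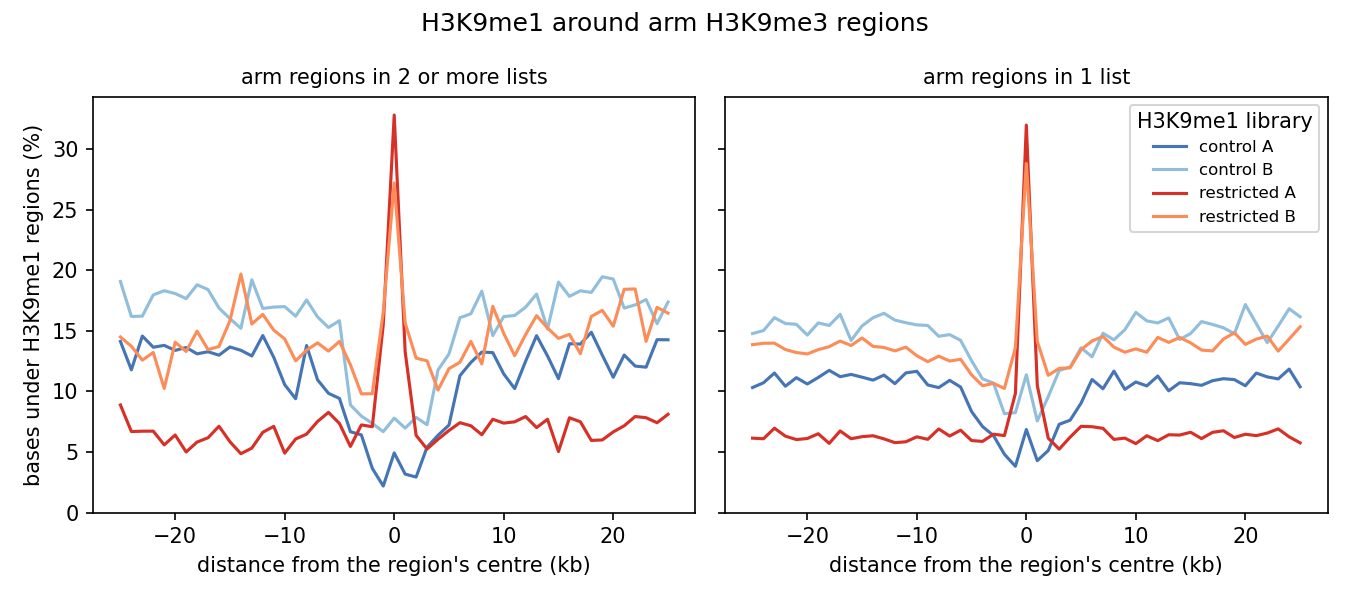
Share of bases covered by H3K9me1 (percent) against distance from the centre of arm regions (kb), one line per H3K9me1 library, for regions in 2 or more lists on the left and in 1 list on the right. At the centre of the recurring regions the restricted libraries rise to 32.8% and 27.2% and the controls stand at 4.92% and 7.80%.

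The profile along distance showed how narrow this was. In the central 1 kb H3K9me1 covered 4.92%, 7.80%, 32.8% and 27.2% of bases. At 5 kb before the centre the values were 9.42%, 15.8%, 7.36% and 14.1%, and at 25 kb before it 14.1%, 19.1%, 8.88% and 14.5%. In the restricted libraries coverage was thus highest at the centre, and in the controls the centre lay in a broader trough. The shapes were partly shared. Within their trough the controls rose slightly, from 2.19% (A) and 6.68% (B) at 1 kb before the centre to 4.92% and 7.80% at it. Restricted B also dipped beside its peak, to 9.81% at 2 kb before the centre.

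Because an H3K9me1 library shares its input with the H3K9me3 library of the same time and letter, the regions were split by whether that H3K9me3 list had a peak there, a split made after the data were seen. Without such a peak the region-to-flank ratio was 0.430 over 85 regions in control A and 0.330 over 113 in control B, while restricted A had 2.36 over 65 and restricted B 1.72 over 175. With such a peak it was 0.357, 0.552, 4.79 and 1.83. In recurring regions the restricted libraries were above 1 and the controls below 1 in both sets. The ratio was larger with the peak in control B and in both restricted libraries, and smaller with it in control A. For arm regions in 1 list it was larger with the peak in all 4 libraries, at 0.826, 1.30, 7.06 and 3.48 against 0.649, 0.678, 2.43 and 2.18, so that control B rose above 1 there. The part of the shared input in the H3K9me1 ratios was not tested.

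The order by condition was also kept across combinations of H3K9me3 lists. Regions in both control H3K9me3 lists only had H3K9me1 ratios of 0.357, 0.697, 2.77 and 1.53. Regions in both restricted lists only had 0.562, 0.307, 6.47 and 2.58, and regions in all 4 lists 0.349, 0.649, 5.87 and 1.46. Without the widest region, likewise left out after the data were seen, the ratios were 0.349, 0.471, 4.48 and 1.81.

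**Figure D5:**
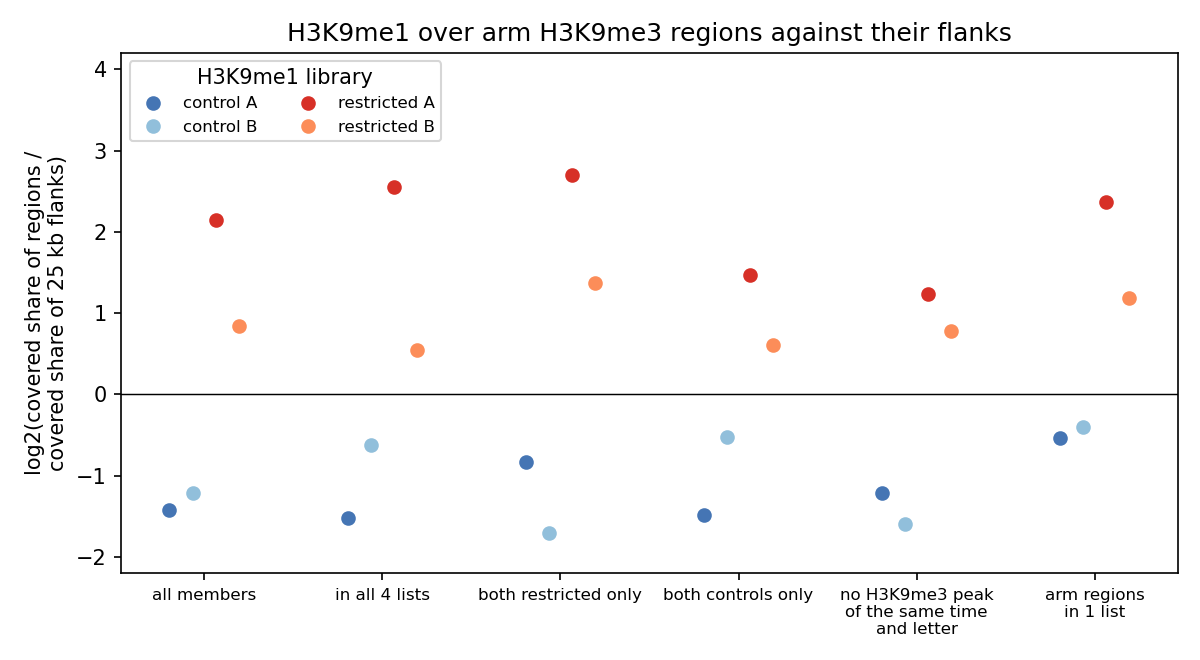
Log2 of the covered share of regions over the covered share of their 25 kb flanks for each H3K9me1 library, in all recurring arm regions, 4 subsets of them and arm regions in 1 list. In every set plotted both control points lie below 0 and both restricted points above 0.

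Arm regions in 1 list behaved alike, so the direction was not particular to recurring regions. Their region-to-flank ratios were 0.692, 0.756, 5.15 and 2.28. The log2 ratio of recurring regions differed from theirs by -0.89 and -0.82 in the controls and by -0.22 and -0.35 in the restricted libraries. The mean difference was -0.57 ± 0.335 (SD, n = 4), lower in 4 of 4 libraries. The exact two-sided sign-flip p was 0.125, the smallest that 4 libraries can give. With only H3K9me1 regions at a −log10 p of at least 2, the mean difference was -0.727. The exact two-sided sign-flip p was then 0.375, so the 4 libraries did not all lie lower under that filter.

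The H3K9me1 regions involved were few, and weak like the lists as a whole. Those over recurring regions numbered 71, 70, 280 and 273. Their median fold was 1.86, 1.80, 1.93 and 1.87, beside 1.98, 1.82, 1.85 and 1.83 in the whole lists. Their median −log10 p was 1.34, 1.33, 1.33 and 1.35, beside 1.34, 1.33, 1.21 and 1.29. A −log10 p of at least 2 was reached over 5, 2, 16 and 9 recurring regions, and none reached 4. That level was rare everywhere, met by 17, 0, 32 and 5 of the 661085, 454516, 387436 and 760945 regions of the whole lists. The H3K9me1 lists were called at a p of 0.1 and covered 308, 226, 149 and 358 Mb in all, so that the amount called overlapped between conditions.

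Single regions were compared on the 8 chromosomes in all 4 H3K9me1 lists, which held 174 of the recurring regions. H3K9me1 was in both restricted libraries only in 48 of them, in both controls only in 1, in all 4 in 8 and in none in 16. No share over all regions is given beside these counts, so nothing particular to the recurring regions is read from them. The length of H3K9me1 in both restricted libraries exceeded that in either control in 65 of the 174, or 37.4%. It did so in 29.8% of all 1361 H3K9me3 regions on these chromosomes and in 29.9% of the 692 arm regions in 1 list. It was shorter in both in 4, or 2.3%, beside 1.18% and 0.578%.

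A limma fit per region, added after the data were seen, called 0 of the 174 at an adjusted p of 0.05, and 1 of all 1361 (0.0735%). The smallest adjusted p of limma among the 174 was 0.0612. An unadjusted p below 0.05 was given to 37 of the 174, all higher after restriction, beside 124 of the 1361. The median log2 difference was 1.40 over the 174 and 0.95 over the 1361. Without restricted A, 69 of the 174 were called, all higher, beside 455 of the 1361. Without restricted B, 65 were called higher and 1 lower, beside 458 of the 1361. Without control A, 1 was called higher and 6 lower, beside 27 of the 1361, and without control B 0, beside 4. In each such fit the lone library is taken to vary as those of the other condition do.

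Among named regions, chr7:91516479-91518485, in all 4 H3K9me3 lists, held 0, 0.197, 1.85 and 0.044 kb of H3K9me1, so that restricted A alone was high. The widest region, chr1:228744956-228771208, held 2.29, 0, 6.75 and 5.19 kb, with both restricted libraries above both controls. At chr7:6730347-6733759 the lengths were 0, 0.240, 1.11 and 0.590 kb, in the same order by condition.

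Regions in both control H3K9me3 lists only were mixed in H3K9me1. At chr9:130286046-130288590, in both control H3K9me3 lists only, H3K9me1 was 0 kb in control A, 0.642 kb in restricted A and 0.424 kb in restricted B, and the list of control B names no region of chromosome 9. At chr1:203935691-203936951 it was 0.713 kb in control A, 0 kb in control B and 0.270 and 0 kb in the restricted libraries. At chr1:224200388-224202807 it was 0.101 kb in control B and 0 kb in the other 3.

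On the 8 shared chromosomes, 19 regions were in both control H3K9me3 lists only. H3K9me1 was longer in both restricted libraries in 3 of them (15.8%) and shorter in 1. Of 22 regions in both restricted H3K9me3 lists only, it was longer in both restricted libraries in 14 (63.6%) and shorter in 0. Of 18 regions in all 4 lists, it was longer in 8 (44.4%) and shorter in 1. Beside these sets, it was longer in both restricted libraries in 37.4% of the 174 recurring regions and 29.8% of all 1361 regions. These counts were made after the data were seen, each H3K9me1 list shares an input with the H3K9me3 list of its time and letter, and the difference between the sets was not tested.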

How the data were processed

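MACS2 broad peak lists of 4 H3K9me3 and 4 H3K9me1 libraries of HCT116 cells were used. The submitters' processing notes name hg19 as the build and MACS2 2.1.1.20160309, Bowtie2 2.1.0 and SAMtools 1.5 as tools. Each library was called against the input of its own time and letter, per the file headers, for H3K9me3 at q cutoffs of 0.05 and 0.1 and for H3K9me1 at p cutoffs of 0.0001 and 0.1. The deposited pileup is a signal (read coverage), the deposited fold enrichment is a ratio to the local background and the deposited p-value and q-value are −log10 values, each averaged over a region.

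Groups came from the labels. Values of the H3K9me3 lists, which chose the regions, are given without permutation p-values by condition. Overlap meant at least 1 bp. Peaks were merged within 1 kb. The tests, in Python 3.11.15 with numpy 2.4.6, pandas 2.3.3 and scipy 1.17.1, were exact permutation tests over the 6 relabellings, exact sign-flip tests and exact binomial (Clopper-Pearson, 95%) intervals. In R 4.3.3, limma 3.58.1 (trend, robust) was fitted on log2(kb + 0.1), with Benjamini-Hochberg adjustment over all regions. The code was checked on 300 simulated interval sets, of which 0 differed from base-by-base counting.

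Named regions were the 8 in all 4 lists, 5 in both control and 5 in both restricted lists with most kb, up to 5 per direction with the smallest limma p, the 5 of highest fold, those in the landmark windows, and those at the limit of the rule. The regions, windows and tests were chosen with earlier results of these data known. Regions are assigned to no gene, exon or intron, since an annotation of hg19 was not used here. Alternatives were stricter q, fold and list thresholds, other merging, end distances, flanks, pseudocounts, scalings and filters, each library left out, and a replicate block by letter. The input libraries' own files were not used.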

Additional observations from a re-analysis of the deposited data

How the results depend on the processing

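The number of recurring arm regions was 137 with −log10 q of at least 2, 224 with a fold of at least 3, 106 with 3 or more lists required, and 166 (without restricted A) to 268 (without control B) when 1 library was left out. Regions in both control lists only numbered 11 (q) and 21 (fold), and 39 to 62 with 1 library left out; those in both restricted lists only numbered 24 (q), and 49 to 83. Restricted minus control was -31.5 to 49 regions, -42.4 to 71.2 kb and -0.514 to 3.19 percentage points of the list with 1 library left out; it reversed without control B (-23.5 regions, -28.9 kb), without restricted A (-31.5 regions, -42.4 kb) and without restricted B (-0.514 points). With a fold of at least 3 the share reversed to -1.32 points. With the end 5 Mb dropped, 9.15% of regions lay within 10 Mb of an end, by construction. With 1 library left out, limma called 0 to 5 of the regions for H3K9me3 (the 5 of 166 without restricted A, beside 35 of all 535) and 0 to 69 for H3K9me1 (the 69 of 174 without restricted A, beside 455 of all 1361). In all, 72 other values of the comparisons kept the sign of a difference or stayed near the main count or share. The H3K9me1 difference of 2.16 to 3.47 was among them. A kept sign is not a kept p. With H3K9me1 at a −log10 p of at least 2, recurring regions still lay below regions in 1 list on average. The exact two-sided sign-flip p there rose from 0.125 to 0.375, so the sign was not shared by all 4 libraries.

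After scaling to equal covered length, same-letter deviations correlated at 0.047 over 841 regions. That scaling takes out the difference in list length between the A and B libraries. The correlation therefore does not tell whether the letters pair the libraries. With the letter as a replicate block the difference is 16.4 kb by construction, since each letter has a control and a restricted library. With that block limma called 0 of the recurring regions for either mark. Depth limits a value of 0 to the caller's threshold, and no counts were used here to place reads under it.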
